A study of Mus musculus with 12 samples.

Results

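The question was whether the response of sperm small RNA to a low protein diet depends on the dose of Atf7, the gene of a stress-responsive transcription factor. It was addressed by the interaction, the log2 diet difference (low protein minus control) in Atf7 heterozygotes less the same difference in wild type, so that a positive value stands for a diet response that is higher in heterozygotes. All 12 libraries of the series entered it, in 4 groups of 3: wild-type males on control diet (WT_CD), wild-type males on low protein diet (WT_LPD), and ATF7+/- males on either diet (ATF7+/-_CD and ATF7+/-_LPD). Diets were given from 3 to 12 weeks of age. The material of every group was sperm whose histones had been replaced, taken from cauda and vas deferens. It was sonicated to part heads and tails and spun through 82% Percoll. An incubation of 1 h at 37 °C is also given for every library. The labels do not describe the Atf7 allele, and do not say whether a library came from 1 male or a pool, so the p-values measure the spread between these libraries. The table counts small RNA reads, so neither Atf7 level nor sperm identity could be checked in it. It lists 2971 unique sequences of 15 to 36 nt, and all 2971 were tested. Reads were 36 bp long, so a sequence of 36 nt fills its read, and the RNA behind it may be longer.

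Transfer RNAs carry amino acids to the ribosome, and their cleavage in or near the anticodon loop leaves 5′ fragments that are the main small RNA of mature mouse sperm. Sperm gain many of these fragments during epididymal transit, and glycine fragments in particular are known for their response to paternal diet. A fragment is called here by the tRNA family its bases match (amino acid and anticodon), by its length and by its 5′ start: complete where its 5′ end is the tRNA's own, extended where it has further bases before that, and trimmed where it lacks the first bases. Of the 19 families, 11 were named by the anticodon that their most common bases spell, and 8 are called by their first bases. Most reads end before the anticodon is complete, so a name rests on the fewer reads that reach it. Glu-CTC (44.5% of the tabulated reads) and Gly-GCC (41.6%) were the most abundant.

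Shown are 12 fragments that the results below turn on, a selection and not the 12 lowest p-values: variants that differ in 1 or 2 bases, fragments of the same families without a differing base, and the Gly-TCC and GGCTCGT fragments described below. Letters are lower case, and capitals mark bases that differ from the most common base of the family at that position. Positions are counted from 1 at the first base of the tRNA, so that C30T stands for T where the family has C at position 30.
Gly-GCC 28 nt: gcattggtggttcagtggtagaattctc
Gly-GCC 30 nt: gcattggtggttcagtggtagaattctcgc
Gly-GCC 30 nt, C30T: gcattggtggttcagtggtagaattctcgT
Gly-GCC 30 nt, C30G: gcattggtggttcagtggtagaattctcgG
Gly-GCC 30 nt, G15A and C30T: gcattggtggttcaAtggtagaattctcgT
Gly-GCC 30 nt, T5C and C30T: gcatCggtggttcagtggtagaattctcgT
Gly-GCC 35 nt: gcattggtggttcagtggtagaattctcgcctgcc
Gly-GCC 36 nt, A36C: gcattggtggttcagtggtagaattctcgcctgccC
Gly-TCC trimmed, 35 nt: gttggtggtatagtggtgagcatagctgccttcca
Val-CAC 34 nt: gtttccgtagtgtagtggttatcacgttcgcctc
Val-CAC 34 nt, C34A: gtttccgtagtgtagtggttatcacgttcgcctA
GGCTCGT family 33 nt: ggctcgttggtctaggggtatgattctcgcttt

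Library totals ran from 2198744 to 6870039 reads, of which the table holds 97.5 to 98.2%. The ATF7+/-_LPD libraries (4828916 to 6870039 reads) were all deeper than the WT_LPD libraries (2278880 to 2874170). Replicates differed by 8.54 to 177 times the counting variance, and replicate 3 of each control-diet group stood apart from replicates 1 and 2 of its group (102 to 177 times). The biological coefficient of variation was 0.326 over sequences, 0.190 over families and 0.359 over classes. Levels are given as RPM, read counts scaled to the same total in every library, for which 3 counts are worth 0.437 to 1.36 RPM.

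No sequence passed the test of the interaction (0 of 2971, 0.00%, edgeR quasi-likelihood with Benjamini-Hochberg adjustment, lowest adjusted p = 0.249), while 292 (9.83%) had an unadjusted p under 0.05. Of these 292, 240 (8.08% of all sequences) were positive and 52 (1.75%) negative. Among the 240 positive ones, 195 were lower on LPD in wild type and higher on LPD in heterozygotes. Among the 52 negative ones, 41 went the opposite way. Limma called 0 sequences and DESeq2 called 3 (0.101%), each of them a 30-nt Gly-GCC fragment ending in another base than C. Over all sequences the median interaction was 0.16, with 58.4% positive, and scaling by TMM or by DESeq2 size factors moved that median to 0.09 and 0.05. With WT_CD represented by its replicate 3 only it was -0.0068, with 49.5% positive. That setting kept all 3 ATF7+/-_CD libraries, so replicates 1 and 2 of control diet were dropped from wild type only. With control diet represented by replicates 1 and 2 of each genotype, the median was 0.18. Both settings were chosen after the values were seen.

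Gly-GCC fragments leaned to a positive interaction and Glu-CTC fragments to a negative one. These families hold 41.6% and 44.5% of the tabulated reads and RPM has a fixed total, so their levels are not independent of each other. As shares of the tabulated reads, their interactions were 4.74 (SE 5.90) and -5.09 (SE 4.19) percentage points. Over the 1098 Gly-GCC sequences the median was 0.43 with 75.0% positive, 169 positive and 11 negative ones having an unadjusted p under 0.05. Over the 833 Glu-CTC sequences the median was -0.20 with 32.3% positive, and the counts were 2 and 24. The 185 Val-CAC sequences had a median of 0.72 with 91.9% positive, and 35 positive and 0 negative ones under that p. Glu-TTC (219 sequences) had a median of 0.25, His-GTG (257) of 0.01 and Lys-CTT (168) of 0.00, and the 43 sequences of the GGCTCGT family had a median of -0.29. With WT_CD represented by replicate 3 only, the median was 0.31 for Gly-GCC, -0.26 for Glu-CTC and 0.23 for Val-CAC. It then turned to -0.48 for Glu-TTC (21.0% positive in place of 67.1%) and to -0.34 for His-GTG. With control-diet replicates 1 and 2 of each genotype, Gly-GCC, Glu-CTC and Val-CAC had medians of 0.54, -0.40 and 0.67. Glu-TTC and His-GTG then had 0.23 and -0.044. Members of a family share most of their bases, so these counts are not counts of independent molecules. The 4 Val-CAC, 30 Gly-GCC and 1 Glu-TTC sequences with complete separation in both genotypes, all LPD libraries below all CD libraries in wild type and above them in heterozygotes, made up 1.18% of all sequences. The reverse crossing was met by 4 sequences (0.135%), 3 of Glu-CTC and 1 of Gly-GCC.

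Within Gly-GCC the median interaction varied with length. Complete fragments of 27 and 28 nt had medians of -0.01 and -0.16 over 84 and 231 sequences. At 29 nt the median was 0.39, at 30 nt 0.83, at 31 nt 0.56, at 32 nt 0.82 and at 33 nt 0.76. At 35 nt, where the fragment ends with the last base of the anticodon, it was -0.25 over 10 sequences. Of the 217 sequences of 30 nt, 216 were positive and 88 had an unadjusted p under 0.05, and 192 were lower on LPD in wild type and higher on LPD in heterozygotes. Complete Glu-CTC fragments had a negative median at each length from 27 nt (-0.18) to 36 nt (-0.22), lowest at 35 nt (-0.73). Complete Val-CAC fragments had a positive median at each length from 28 to 36 nt, 0.20 at 35 nt being the lowest and 1.10 at 34 nt the highest. With WT_CD represented by replicate 3 only, several of these medians changed sign: Gly-GCC to 0.42, 0.10 and 0.32 at 27, 28 and 35 nt, Glu-CTC to 0.34, 0.053 and 0.084 at 27, 28 and 29 nt, and Val-CAC to -0.074 at 32 nt. The Gly-GCC medians at 30 and 31 nt were then 0.51 and 0.03. With control-diet replicates 1 and 2 of each genotype, the Gly-GCC medians at 27, 28 and 35 nt were 0.18, 0.012 and -0.72. At 30 and 31 nt they were 0.91 and 0.70. Glu-CTC then had -0.38, -0.53 and -0.38 at 27, 28 and 29 nt, and Val-CAC had 0.48 at 32 nt.

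**Figure D1:**
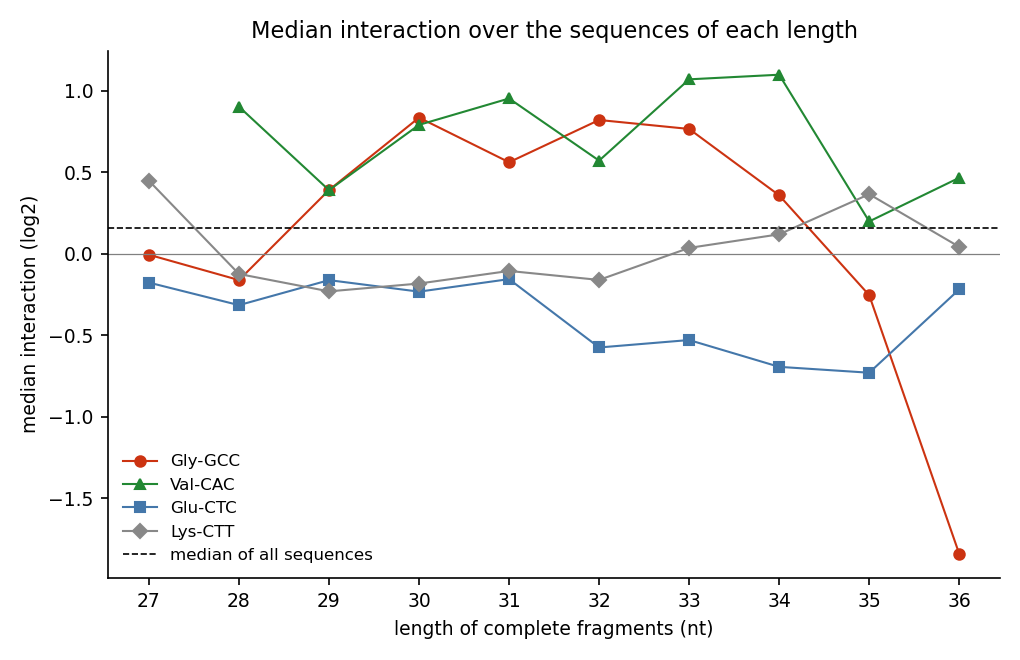
Median interaction (log2) over the complete sequences of each length in nt, for Gly-GCC, Val-CAC, Glu-CTC and Lys-CTT, with the median of all sequences (0.16) as a dashed line. Gly-GCC passes from -0.16 at 28 nt to 0.83 at 30 nt and to -0.25 at 35 nt, while Glu-CTC stays below 0.

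Summed over its 217 sequences, the complete 30-nt Gly-GCC class had the lowest p-value of the 114 classes of family, start and length. Its level was 73046, 99937 and 65618 RPM in the WT_CD libraries, 60360, 57989 and 60641 in WT_LPD, 80739, 67357 and 75723 in ATF7+/-_CD, and 77330, 110795 and 94988 in ATF7+/-_LPD. Every WT_LPD library lay below every WT_CD library, and the heterozygous diet groups overlapped. The diet difference was -0.41 (SE 0.18) in wild type and 0.34 (SE 0.18) in heterozygotes on the log2 scale, an interaction of 0.75 (SE 0.26, edgeR adjusted p = 0.769). No class passed the test (0 of 114, 0.00%), and 5 (4.39%) had an unadjusted p under 0.05, 2 positive (1.75%) and 3 negative (2.63%). The most abundant member of the class, the 30-nt sequence ending in C, held 51.8% of it and had an interaction of 0.61 (SE 0.27).

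The 35-nt Gly-GCC class, fragments that contain the whole anticodon, went the other way. Its level was 884, 2788 and 3758 RPM in WT_CD, 4862, 5333 and 4675 in WT_LPD, 2933, 2573 and 1912 in ATF7+/-_CD, and 1666, 1986 and 2123 in ATF7+/-_LPD. The WT_LPD libraries were the highest of all 12, and WT_CD replicate 1 was the lowest. The interaction was -1.36 (SE 0.58, adjusted p = 0.781 by edgeR) and lay between -1.79 and -0.96 when any library was left out. Its main sequence, printed above, gave -1.44 (SE 0.55). Trimmed Gly-GCC fragments of 36 nt showed the same order, with 249 to 306 RPM in WT_LPD and 96.2 to 113 in ATF7+/-_LPD, and an interaction of -1.40 (SE 0.51). The main trimmed sequence starts at base 3 and was read to base 38, past the anticodon. At 36 nt it fills the read, so base 38 need not be the end of the RNA. The named 36-nt sequence with A36C was at 26.3, 21.9 and 16.1 RPM in WT_LPD and at 2.49, 5.24 and 5.63 RPM in ATF7+/-_LPD, with an interaction of -2.48 (SE 0.65).

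Complete Val-CAC fragments of 34 nt were higher in ATF7+/-_LPD than in any other group. The complete 34-nt Val-CAC class was at 192, 298 and 555 RPM in WT_CD, 511, 471 and 436 in WT_LPD, 413, 347 and 351 in ATF7+/-_CD, and 810, 1251 and 1205 in ATF7+/-_LPD. No library of the other groups reached the lowest ATF7+/-_LPD value. The diet difference was 0.44 (SE 0.35) in wild type and 1.56 (SE 0.35) in heterozygotes, and the interaction was 1.12 (SE 0.49, edgeR adjusted p = 0.781), or 0.61 without WT_CD replicate 3, the lowest of the values with 1 library left out (highest 1.41). Position 34 is the first base of the anticodon in this family. Among its reads that contain the whole anticodon, 33.5 RPM read CAC and 56.4 RPM another anticodon, so the name is that of the most common bases only. The sequence with C34A, a base whose origin was not tested, was at 12.7 to 21.2 RPM in WT_CD, 19.5 to 23.7 in WT_LPD, 17.7 to 19.9 in ATF7+/-_CD and 45.8 to 64.6 in ATF7+/-_LPD. Its interaction was 1.35 (SE 0.35, edgeR adjusted p = 0.305), and that of the 34-nt sequence ending in C was 1.18 (SE 0.57). Both 34-nt sequences separated ATF7+/-_LPD from the other 9 libraries. The 33-nt class had an interaction of 0.81 (SE 0.42). The 3 complete sequences of 35 nt and the 4 of 36 nt, which reach further into the anticodon, had medians of 0.20 and 0.47. Of these, 0 had an unadjusted edgeR p under 0.05.

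Of the remaining classes with the 10 lowest p-values, 2 were trimmed glutamate fragments and 3 belonged to the GGCTCGT family. Trimmed 33-nt Glu-CTC was at 147 to 160 RPM in WT_CD, 227 to 295 in WT_LPD, 96.9 to 262 in ATF7+/-_CD and 129 to 136 in ATF7+/-_LPD, with an interaction of -1.18 (SE 0.44). Its most abundant sequence can also be read, with a gap, as starting at the first base, so that its place among the trimmed ones rests on the ungapped placement used here. Trimmed 30-nt Glu-TTC was at 2208, 2008 and 114 RPM in WT_CD, 54.9, 57.4 and 109 in WT_LPD, 901, 561 and 318 in ATF7+/-_CD, and 231, 100 and 152 in ATF7+/-_LPD. It was lower on LPD in each genotype, and the estimate of 2.41 (SE 1.12) turned to -1.25 when WT_CD was represented by replicate 3 only. With control-diet replicates 1 and 2 of each genotype the estimate was 2.65. In the GGCTCGT family the 33-nt class was at 429 to 715 RPM in WT_CD, 611 to 793 in WT_LPD, 346 to 516 in ATF7+/-_CD and 316 to 338 in ATF7+/-_LPD (interaction -0.70, SE 0.36). The 32-nt and 28-nt classes of that family had interactions of -0.69 (SE 0.36) and -0.60 (SE 0.31).

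Among the 20 sequences with the lowest p-values, 16 were Gly-GCC, 3 Val-CAC and 1 Gly-TCC, and 18 estimates were positive. Those families held 1098, 185 and 54 of all 2971 sequences. The adjusted p of the 20 ranged from 0.249 to 0.305. The 30-nt Gly-GCC fragment with C30T was at 11642, 13055 and 7778 RPM in WT_CD, 7179, 6685 and 7064 in WT_LPD, 8797, 7411 and 9262 in ATF7+/-_CD, and 10028, 14705 and 12891 in ATF7+/-_LPD. Both diets separated in each genotype, in opposite directions, and the interaction was 1.20 (SE 0.32, edgeR adjusted p = 0.305). A further 10 of the 20 were this sequence with 1 more substitution, at means of 7.49 to 33.6 RPM against 9708 RPM for the sequence itself, and with interactions from 1.08 to 2.58. They repeat the C30T pattern at low level and are not independent of it.

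The lowest p-value belonged to the variant with G15A and C30T. It was at 12.7, 15.2 and 7.29 RPM in WT_CD, 3.51, 5.22 and 2.61 in WT_LPD, 5.2, 4.15 and 6.37 in ATF7+/-_CD, and 9.11, 11.4 and 9.92 in ATF7+/-_LPD. Its diet difference was -1.60 (SE 0.36) in wild type and 0.98 (SE 0.33) in heterozygotes, and the interaction was 2.58 (SE 0.49, adjusted p = 0.249 by edgeR, 0.0132 by DESeq2). The variant with T5C and C30T followed, with 14.04 to 14.96 RPM in WT_LPD, 21.9 to 38.7 in WT_CD, and 18.3 to 24.2 and 32.5 to 43.5 RPM in the heterozygous groups on control and low protein diet (interaction 1.86, SE 0.36). The fragment with C30G had 46.1 to 58.2 RPM in WT_LPD and 120 to 180 in ATF7+/-_LPD (interaction 1.89, SE 0.40). These 3 were the sequences DESeq2 called. The variant with T5G and C30G had a WT_LPD mean of 1.13 RPM, under the level of 3 counts in the shallowest library, and no fold is given for it.

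Of the 20, 2 sequences had a negative estimate, the Gly-GCC fragment with A36C described above and a trimmed 35-nt Gly-TCC fragment. The Gly-TCC fragment was at 12.7, 10.6 and 11.6 RPM in WT_CD, 10.5, 13.6 and 9.12 in WT_LPD, 9.14, 8.68 and 6.82 in ATF7+/-_CD, and 3.31, 1.60 and 1.93 in ATF7+/-_LPD. The wild-type groups overlapped, and each ATF7+/-_LPD library was below all the others. Its interaction was -1.82 (SE 0.43, edgeR adjusted p = 0.305). Besides the sequence with C34A, the Val-CAC sequences were a 33-nt one with C6T and T27C (interaction 1.99, SE 0.51) and a 32-nt one with T20C, T27C and C32T (1.75, SE 0.47).

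Among these 20, 17 ended in another base than their family has at that position, as did 854 of all 2971 sequences. Of the 17, 11 were 30-nt Gly-GCC fragments ending in T, the C30T fragment and its variants, which are not independent of it. The 854 such sequences in the table had a median interaction of 0.60 with 85.6% positive, 166 positive and 2 negative ones having an unadjusted p under 0.05. The other 2117 sequences had a median of -0.04 with 47.4% positive, and counts of 74 and 50. By the last base, the median was 0.83 for T (333 sequences), 0.51 for A (352), 0.52 for G (65) and 0.46 for C (104). With WT_CD represented by replicate 3 only, the median of the 854 was 0.17 with 60.4% positive. Those of T, A, G and C were then 0.27, 0.11, -0.076 and 0.097. With control-diet replicates 1 and 2 of each genotype, the median of the 854 was 0.79. Those of T, A, G and C were then 1.06, 0.68, 0.63 and 0.54. The origin of a differing last base was not tested.

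This pattern was noticed after the values were seen, so the reads behind it are described without a test. Of all tabulated reads, 17.9, 16.4 and 12.2% had another last base in WT_CD, 13.0, 12.3 and 12.2% in WT_LPD, 12.8, 12.2 and 12.8% in ATF7+/-_CD, and 14.2, 15.3 and 15.5% in ATF7+/-_LPD. The ATF7+/-_LPD libraries were above all libraries of WT_LPD and ATF7+/-_CD, while WT_CD replicates 1 and 2 were the highest of all and replicate 3 the lowest. The interaction was 5.41 percentage points, and 2.09 when WT_CD was represented by replicate 3 only. With control-diet replicates 1 and 2 of each genotype the interaction was 7.16 points. It was positive in each of the 6 most abundant families, from 3.02 points in Lys-CTT to 7.34 in Gly-GCC, and with WT_CD represented by replicate 3 only from 0.779 in Val-CAC (6.92 over all libraries) to 2.49 in Gly-GCC. Within complete 30-nt Gly-GCC fragments, a fixed length and family, the share was 28.8, 25.3 and 21.3% in WT_CD, 21.5, 21.1 and 21.2% in WT_LPD, 20.3, 20.2 and 23.0% in ATF7+/-_CD, and 23.7, 24.4 and 24.7% in ATF7+/-_LPD. Within complete 30-nt Glu-CTC fragments, whose own interaction leaned the other way, it was 14.5 to 14.6% in WT_LPD and 16.5 to 17.5% in ATF7+/-_LPD, and the interaction was 5.54 points.

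Read totals by start class showed no interaction that passed the test. Complete fragments took 82.5, 89.2 and 92.7% of the tabulated reads in WT_CD, 94.5, 93.5 and 92.1% in WT_LPD, 88.3, 90.5 and 93.6% in ATF7+/-_CD, and 92.8, 96.0 and 94.5% in ATF7+/-_LPD. Their interaction in log2 RPM was -0.03 (95% interval -0.17 to 0.11, exact permutation p = 0.695, n = 3 per group). Trimmed fragments took 15.7, 8.81 and 4.36% in WT_CD, 3.20, 3.72 and 4.13% in WT_LPD, 9.55, 7.47 and 4.44% in ATF7+/-_CD, and 4.95, 2.44 and 3.48% in ATF7+/-_LPD. They were highest in the control-diet replicates 1 and 2 of each genotype, and their interaction was 0.23 (interval -1.38 to 1.84, exact permutation p = 0.73), or -0.72 with WT_CD represented by replicate 3 only. Over the 562 trimmed sequences the median diet effect was -1.65 in wild type and -1.11 in heterozygotes. Extended fragments, 105 of 121 of them His-GTG, which carries an extra guanosine before its first base, had an interaction of -0.50 (interval -1.28 to 0.29, exact permutation p = 0.245). The share of His-GTG reads that start before the first base was 24.8, 41.7 and 61.2% in WT_CD, 66.2, 63.4 and 60.6% in WT_LPD, 34.6, 41.6 and 59.7% in ATF7+/-_CD, and 49.99, 61.7 and 54.7% in ATF7+/-_LPD.

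By length, 35-nt reads had the lowest p-value. They made up 0.661, 0.959 and 1.37% of the tabulated reads in WT_CD, 1.54, 1.45 and 1.60% in WT_LPD, 0.980, 1.00 and 0.930% in ATF7+/-_CD, and 0.872, 0.870 and 0.938% in ATF7+/-_LPD. Every WT_LPD library was above every WT_CD library, and the heterozygous groups overlapped. The interaction was -0.80 (SE 0.31, two-sided exact permutation p = 0.04, adjusted p = 0.64 over the 24 classes of start, length and end). It was the only class of the 24 (4.17%) with an exact p under 0.05, and none passed after adjustment (0.00%). The smallest p these 400 arrangements can give is 0.005. Reads of 30 nt had an interaction of 0.31 (interval -0.21 to 0.84, exact permutation p = 0.185; 0.16 without ATF7+/-_CD replicate 3), those of 36 nt -0.53 (p = 0.325) and those under 27 nt -0.29 (p = 0.07). The remaining lengths, 27 to 29 and 31 to 34 nt, lay between -0.20 and 0.23. Grouped by the tRNA position of the last base, fragments ending at base 35 had an interaction of -0.97 (interval -2.16 to 0.21, exact permutation p = 0.08; -0.50 without WT_CD replicate 1 and -1.34 without replicate 3), those ending at base 30 of 0.31 (p = 0.18) and those at base 28 of -0.25 (p = 0.41).

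No family passed the test (0 of 19, 0.00%, edgeR, lowest adjusted p = 0.692), 0 had an unadjusted p under 0.05, and limma and DESeq2 called 0 as well. Gly-GCC was at 346996 to 405394 RPM in WT_CD, 376272 to 405462 in WT_LPD, 346741 to 500978 in ATF7+/-_CD and 419739 to 498981 in ATF7+/-_LPD. Its interaction was 0.15 (SE 0.21). Its complete 30-nt and 35-nt classes had opposite estimates (0.75, SE 0.26, and -1.36, SE 0.58), neither of which passed the test. Whether lengths differed within the family was not tested. Glu-CTC had -0.17 (SE 0.18), His-GTG -0.17 (SE 0.35), Glu-TTC 0.05 (SE 0.28) and Lys-CTT -0.09 (SE 0.22). Val-CAC was at 18353 to 23898 RPM in WT_CD, 15894 to 17541 in WT_LPD, 15157 to 27313 in ATF7+/-_CD and 21868 to 25540 in ATF7+/-_LPD, with an interaction of 0.53 (SE 0.27, exact permutation p = 0.09). The wild-type diet groups separated and the heterozygous ones overlapped. The GGCTCGT family was at 1743 to 1813 RPM in ATF7+/-_LPD and at 1892 to 3572 RPM in the other groups, with an interaction of -0.50 (SE 0.26).

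The minor glycine families Gly-TCC and Gly-CCC had interactions of 0.10 (SE 0.28) and -0.25 (SE 0.33). Gln-CTG had 0.27 (SE 0.33), Asp-GTC 0.28 (SE 0.35) and Val-TAC 0.13 (SE 0.28). The other 7 families without a name, the most abundant at a mean of 434 RPM, lay between -0.43 and 0.32. Over the 1591 sequences of the families known to respond to a low protein diet in sperm (Gly-GCC, Gly-TCC, Gly-CCC, Lys-CTT and His-GTG) the median was 0.32 with 67.8% positive, against 0.16 and 58.4% over all sequences. Of the 1591, 1098 were Gly-GCC (median 0.43). The medians of Gly-TCC, Gly-CCC, Lys-CTT and His-GTG were 0.19, -0.073, -0.0014 and 0.012. Over the 1052 sequences of the 2 glutamate families the median was -0.15 with 39.5% positive, and over the 197 valine sequences 0.69 with 89.8% positive.

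The most abundant sequences of the main families had estimates between -0.57 and 0.20. The 28-nt Gly-GCC fragment was at 83273, 88299 and 119440 RPM in WT_CD, 132918, 131210 and 122583 in WT_LPD, 84151, 97284 and 170308 in ATF7+/-_CD, and 117111, 130172 and 121636 in ATF7+/-_LPD. Its interaction was -0.34 (SE 0.35), and control-diet replicate 3 of ATF7+/- was the highest library. The leading Glu-CTC sequence of 29 nt had -0.28 (SE 0.26), that of Glu-TTC (29 nt) -0.27 (SE 0.28), that of Lys-CTT (33 nt) -0.14 (SE 0.33), that of Val-CAC (32 nt) 0.20 (SE 0.43) and that of His-GTG (31 nt, extended) -0.57 (SE 0.38).

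The number of sequences called depended on the control-diet libraries. Without WT_CD replicate 3 there were 39 (1.31%), 37 of them positive, of which 24 were Gly-GCC, 6 Glu-TTC and 5 Val-CAC, 30 had another last base, and 9 were among the 20 above. With control diet represented by replicates 1 and 2 of each genotype, a choice made after the values were seen, 165 of 2971 were called, 132 of them positive and 100 of them Gly-GCC. Over all 2971 sequences, 1098 were Gly-GCC, 219 Glu-TTC and 185 Val-CAC, and 854 had another last base. With WT_CD represented by replicate 3 only, 0 were called and 181 had an unadjusted p under 0.05, but there the spread comes from the other groups, the lone library being assumed to vary like theirs, and a group of 1 gives fewer calls by construction. That library had 4.36% trimmed reads against 15.7 and 8.81% in its group, and its part in the result beyond these counts was not tested.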

How the data were processed

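Small RNA libraries (NEBNext kit, 36 bp reads) were counted by the authors per unique sequence, and the deposited table holds raw read counts and, per the file headers, the authors' RPM values, from whose ratio to the counts the library totals were recovered. Reads were placed on mm10 per the submitters' processing notes; aligner and counter: not given in the sources used here. The table gives no names, so sequences joined families by their bases in order of abundance (ungapped, at most 2 mismatches, overlap of at least 15), and anticodons were checked against RefSeq tRNA gene symbols (GRCm38.p6). That check asks only whether a gene with the anticodon exists. Among reads with the whole anticodon, His-GTG had 10.4 RPM reading GTG and 8.48 RPM reading another, and Val-CAC had 33.5 RPM reading CAC and 56.4 RPM reading another.

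Counts were fitted with edgeR 4.0.16 quasi-likelihood in R 4.3.3, with 1 mean for each of the 4 groups; the recovered totals served as library sizes, unscaled. P-values are two-sided, adjusted by Benjamini-Hochberg, with 0.05 as threshold. A minimum mean of 1 RPM removed 0 sequences; classes needed 100 RPM. Totals by start, length and end used an exact permutation test (genotype labels within each diet). It is exact where genotype has no effect on either diet. A genotype difference shared by both diets, or an effect on 1 diet only, widens its spread, so that its p tends to be too large for the interaction. Alternatives were DESeq2 1.42.0, limma 3.58.1 on log2(RPM + 1) and log2(RPM + 0.1), TMM, table sums, filters, a replicate block and each library left out. Named are the 20 lowest p-values, the leading sequence of 6 families, every family and 10 classes; other sequences printed were chosen after their values were seen. Members and lists were chosen with earlier results of these data known. The 3-count level covers counting error only, because the reads have no molecular identifiers and PCR copies count as reads. The code was tested on simulated data.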

Additional observations from a re-analysis of the deposited data

How the results depend on the processing

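Over 79 values and 1529 recomputed ones, 1423 kept their direction and their side of the threshold, 34 kept the direction and passed the threshold, and 72 changed sign, none of which had been called. DESeq2 called 3 sequences where edgeR called 0. Leaving out 1 library called 0 to 39 sequences, the 39 without WT_CD replicate 3 and 0 without any other, and 0 families and 0 classes. With control diet represented by replicates 1 and 2 (chosen after seeing the data), 165 of 2971 sequences and 3 of 114 classes were called. TMM scaling, limma, table sums, either filter and diet labels permuted in place of genotype labels called 0. Same-numbered libraries correlated over 0.1 for all 3 numbers between WT_CD and ATF7+/-_CD (r 0.547, 0.143 and 0.522), for 2 between WT_CD and ATF7+/-_LPD (0.583, 0.144 and -0.025), for 1 between the heterozygous groups (0.414) and for 0 in the 3 comparisons with WT_LPD (lowest -0.403). As not every r was over 0.1, the numbers were not taken as pairs; with a replicate block 0 sequences were called and 269 had an unadjusted p under 0.05.

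With WT_CD represented by replicate 3 only (chosen after seeing the data), the sign changed for the leading sequences of Glu-CTC (0.048), Lys-CTT (0.24) and Val-CAC (-0.11), for the families Glu-TTC (-0.40), Lys-CTT (0.057), Gly-TCC (-0.13), GGCTCCA (0.19), GACGAGG (0.14) and GGGGGTA (0.048), for trimmed 30-nt Glu-TTC (-1.25), for complete (0.047) and trimmed (-0.72) totals, for lengths 28 (0.0028), 29 (0.11), 31 (-0.18) and 36 nt (0.19), and for ends at 27 (0.43), 28 (0.053), 29 (0.16), 31 (-0.17), 33 (0.0104) and 36 (0.26). With control-diet replicates 1 and 2 it changed for GGTAGCG (-0.21), GGGGATG (-0.0021) and end 27 (0.015), and for AGCAGAG with TMM (0.099) and limma on log2(RPM + 1) (0.092). The setting with replicate 3 only kept replicates 1 and 2 of ATF7+/-_CD, so the genotypes then differed in their control-diet replicates. The cause of these sign changes was not tested. Leaving out 1 library moved the estimate across 0 for the leading sequences of Gly-GCC (-0.53 to 0.029), Lys-CTT (-0.38 to 0.061) and Val-CAC (-0.0904 to 0.54), for His-GTG (-0.39 to 0.074), Glu-TTC (-0.14 to 0.23), Gly-TCC (-0.094 to 0.23), Gln-CTG (-0.047 to 0.41), GGTAGCG (-0.066 to 0.33), Gly-CCC (-0.41 to 0.0064), GGCTCCA (-0.28 to 0.13) and AGCAGAG (-0.39 to 0.42), for complete (-0.0703 to 0.018) and trimmed (-0.21 to 0.71) totals, lengths 27 (-0.043 to 0.23), 28 (-0.31 to 0.029), 31 (-0.091 to 0.35) and 34 nt (-0.18 to 0.038), and ends 27 (-0.25 to 0.24), 31 (-0.055 to 0.41) and 34 (-0.18 to 0.062).

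With 3 libraries a group and a coefficient of variation of 0.326, the spread between libraries and not the depth limited the precision of abundant sequences; the variants of 7.49 to 33.6 RPM rest on few reads in the shallower libraries. Depth differed between WT_LPD and ATF7+/-_LPD without overlap, and its part was not tested.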
